A study of Mus musculus with 9 samples.

Results

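Scavenger receptors are surface and lysosomal proteins with which microglia, the resident macrophages of the brain, bind and take up modified lipoproteins, fatty acids, bacteria, hemoglobin complexes, and cell debris. They are grouped by structure rather than by ancestry, so that a collagen-like receptor, a lipid transporter with a large loop outside the cell, and a lectin can share the name. Culture and activation are known to change their levels strongly in macrophages. The 8 genes described here, Msr1, Marco, Cd36, Scarb1, Cd68, Cd163, Mrc1, and Olr1, were chosen by name, and all transcripts of each were summed. They are 8 of the 54119 genes in the table.

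The question was whether knockdown of Chd8, a chromatin remodeler, or of Tsc2, a brake on mTORC1 signaling, goes with other levels of these receptors, because microglia with less Tsc2 were studied for their uptake of particles. RNA-seq was performed on 9 libraries of total RNA from primary microglia of C57BL/6J mice, 3 each treated with control siRNA, Chd8 siRNA, or Tsc2 siRNA. The cells were shaken off mixed glial cultures of whole embryonic brains, each replicate being a culture from a distinct brain, and all groups received the same transfection reagent. The study's results mention 3 days of stimulation with lipopolysaccharide (LPS, a bacterial cell wall component that activates microglia), and its methods, which place the RNA isolation 3 days after the siRNA, do not list this experiment among those done without LPS. The sample descriptions used here name no LPS treatment, so its timing in these libraries is uncertain. Total counts ranged from 16913448 to 33213801 per library, and a floor of 3 counts, the limit that a count of 0 allows, corresponded to 0.0903 to 0.177 CPM (counts scaled to the library total). Levels are given as normalized CPM, for which the total is corrected by TMM factors. The targeted genes were lower where they should be, with log2 fold changes of −0.86 for Chd8 and −0.38 for Tsc2, although neither passed edgeR's test. With the replicate block, a fit that compares libraries with the same replicate number, Chd8 was called (edgeR adjusted p = 0.00777) and Tsc2 was not (−0.39, edgeR adjusted p = 0.219). Chd8 had 118, 97.3, and 93.5 CPM after control siRNA and 86.7, 44.5, and 38.2 CPM after its siRNA, so it was reduced least in library 1. Tsc2 had 24.6, 30.6, and 36.4 CPM after its siRNA and between 38.9 and 40.8 CPM after control siRNA, so the reduction behind every Tsc2 comparison was small, and smallest in library 3.

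The cells were checked against marker lists. Among 12 microglia markers, Itgam and Csf1r averaged 479 and 464 normalized CPM over the 9 libraries, whereas the defining homeostatic markers Tmem119, Siglech, and P2ry12 were at 0.217, 0.187, and 1.82 CPM. Among 12 markers of border-associated macrophages, Lyve1 had 0 counts in every library and Cd209f and Mgl2 had at most 3, while Siglec1 and Ms4a7 averaged 563 and 376 CPM. Summed astrocyte markers were between 9.72 and 99.7 CPM, highest in control siRNA library 3, and summed fibroblast markers were between 4.26 and 52.6 CPM. Summed neuron, oligodendrocyte lineage, and endothelial and mural markers stayed at or below 27.3 CPM. In bulk RNA, fewer cells of a type and less RNA per cell cannot be told apart.

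The sequences bearing on the results are given here. Msr1 is transcribed into forms with different ends. The coding sequences of Msr1-201 and Msr1-202 share their first 1054 bases on the minus strand of chromosome 8 and then part, and the stretch shown has the last 30 shared bases in lower case and the bases after the parting in capitals (GENCODE mouse release 21).
Msr1-201: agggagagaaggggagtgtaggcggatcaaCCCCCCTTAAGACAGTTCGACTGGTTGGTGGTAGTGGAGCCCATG
Msr1-202: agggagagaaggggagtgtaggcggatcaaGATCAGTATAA
Msr1-201 has 458 codons, of which 106 lie after the parting, and Msr1-202 has 354 codons, of which 2 lie after it. As background, macrophage scavenger receptor type I carries a cysteine-rich domain at its end that type II lacks.

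The promoters of Cd36, Cd68, and Marco are shown, which were chosen after the values of these genes were seen. The RefSeq promoter table (GRCm38) held 6 of the 8 genes and lacked Msr1 and Scarb1. The 250 bases before the start are given, on the minus strand in all 3 cases, with matches to 3 motifs on either strand in capitals. The motifs were GAGGAA (core of the PU.1 motif, TTCCTC on the other strand), TGAGTCA (AP-1), and AGGTCA (the repeat bound by nuclear receptors, TGACCT on the other strand). No binding was measured.
Cd36, chr5:17835897-17836146: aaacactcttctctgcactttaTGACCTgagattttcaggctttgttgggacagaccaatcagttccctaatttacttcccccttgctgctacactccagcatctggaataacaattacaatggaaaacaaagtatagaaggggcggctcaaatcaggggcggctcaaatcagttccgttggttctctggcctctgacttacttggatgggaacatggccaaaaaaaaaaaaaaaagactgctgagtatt
Cd68, chr11:69666171-69666420: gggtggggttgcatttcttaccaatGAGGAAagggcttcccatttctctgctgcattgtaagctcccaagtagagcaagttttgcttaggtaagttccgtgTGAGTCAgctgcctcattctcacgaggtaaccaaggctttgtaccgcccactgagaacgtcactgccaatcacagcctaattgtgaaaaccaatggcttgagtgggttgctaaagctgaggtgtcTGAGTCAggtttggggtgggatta
Marco, chr1:120505025-120505274: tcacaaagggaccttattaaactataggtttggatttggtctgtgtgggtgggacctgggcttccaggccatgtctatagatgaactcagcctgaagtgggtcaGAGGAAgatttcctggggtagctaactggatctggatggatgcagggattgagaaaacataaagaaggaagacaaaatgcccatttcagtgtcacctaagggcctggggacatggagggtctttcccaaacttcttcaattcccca
GAGGAA was found in 4 of the 6 promoters (Marco, Cd68, Mrc1, and Olr1), against 23.3% of all 32851 promoters in the table. TGAGTCA was found in 2 (Cd68 with 2 copies, and Olr1), against 4.46%. AGGTCA was found in 2 (Cd36 and Olr1), against 14.0%. The Cd163 promoter held none of the 3 motifs.

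Compared per length, as TPM (counts divided by the annotated transcript lengths and scaled to the same library total), the receptors spanned from abundant to nearly undetected. Cd68, a heavily glycosylated lysosomal membrane protein, averaged 157 TPM over the 9 libraries and ranked 200 among all genes. Msr1, which binds modified lipoproteins and other polyanions, averaged 150 TPM and ranked 207. The ranges of these neighbours over the libraries overlapped. Cd36, the class B receptor for long-chain fatty acids and oxidized lipoproteins, followed at 64.5 TPM, 2.32-fold below Msr1 and without overlap. Mrc1, the mannose receptor, was next at 7.04 TPM, 9.15-fold below Cd36 and again without overlap. Marco, a collagenous receptor for bacteria and particles, had 2.91 TPM. Scarb1, the receptor for high-density lipoprotein, had 2.06 TPM, and Olr1, an endothelial and macrophage receptor for oxidized lipoprotein, had 1.26 TPM. The range of Mrc1 overlapped with that of Marco but lay above those of Scarb1 and Olr1, and the ranges of Marco, Scarb1, and Olr1 overlapped, so that the order of these 3 was not resolved. Cd163, the hemoglobin-haptoglobin scavenger, was at 0.0121 TPM.

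No receptor was called in any comparison. With thresholds of 0.05 for the FDR (false discovery rate, Benjamini-Hochberg) and 1.5-fold for the change, edgeR's quasi-likelihood test called 0 of the 7 receptors that passed the filter on low counts in Chd8 siRNA against control siRNA, where the background was 0.0% of 16273 genes (622 genes, 3.82%, with an unadjusted p under 0.05). The count was also 0 of 7 in Tsc2 siRNA against control siRNA (background 0.0%, 425 genes, 2.61%, with an unadjusted p under 0.05) and in Chd8 siRNA against Tsc2 siRNA (background 0.0%, 504 genes, 3.1%). Unadjusted p-values under 0.05 were found for 0, 1, and 1 receptors, and with the replicate block for 3, 1, and 3 receptors, where 12.8%, 10.7%, and 10.7% of genes had one. With the block, 0 receptors were called against backgrounds of 0.535%, 0.387%, and 0.221% of genes, and 0 were called by DESeq2's Wald test. Without the fold change threshold, a setting chosen after seeing the data, the blocked fit had 1 receptor, Cd36, past the FDR in Chd8 siRNA against control siRNA, where 1.04% of genes passed, 1 (Cd36 again) in Chd8 siRNA against Tsc2 siRNA, where 0.375% passed, and 0 in Tsc2 siRNA against control siRNA, where 0.639% passed. In DESeq2 with the block, Cd36 and Cd68 passed the FDR in both comparisons of Chd8 siRNA, where 8.34% and 3.48% of genes with an adjusted p passed, and 0 receptors in Tsc2 siRNA against control siRNA, where 2.8% passed. In each comparison 0 of the 7 receptors had groups that did not overlap, against 9.09%, 8.11%, and 8.44% of all genes tested.

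**Figure D1:**
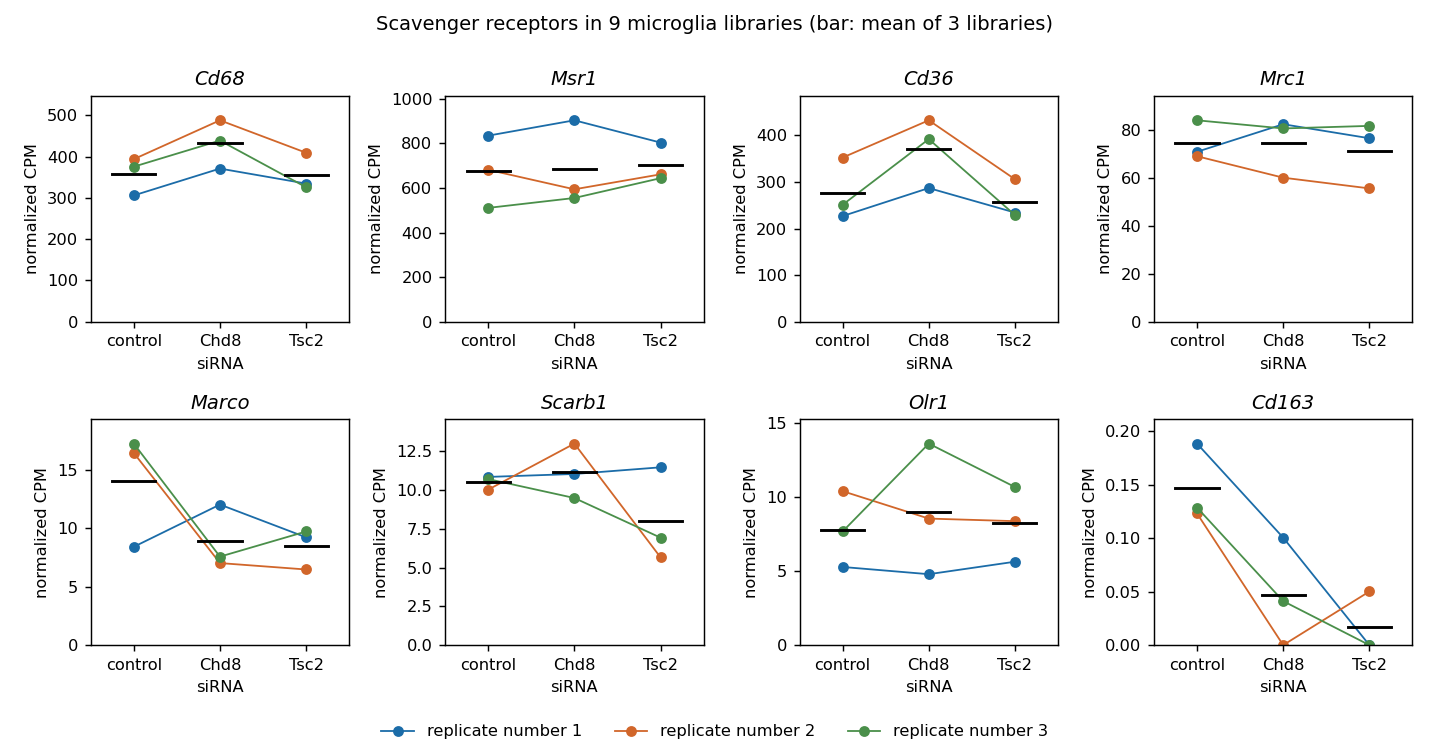
Normalized CPM (vertical axes, each starting at 0 with its own scale) of the 8 receptors in control, Chd8, and Tsc2 siRNA libraries (horizontal axes), with lines joining libraries of the same replicate number and black bars for the means of 3 libraries. Cd36 and Cd68 were highest after Chd8 siRNA at every replicate number, Msr1 was highest at number 1 in every group, and Cd163 stayed below 0.2 CPM.

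Cd36 was the only receptor to pass the FDR in edgeR's blocked fit, with higher values after Chd8 siRNA. The gene lies on chromosome 5 at 17781690 to 17888801 (minus strand, GRCm38, as for all positions given). It had 227, 352, and 251 normalized CPM in control siRNA libraries 1 to 3, 287, 432, and 392 after Chd8 siRNA, and 234, 306, and 229 after Tsc2 siRNA. At equal replicate number, Chd8 siRNA was above control siRNA by 1.27-, 1.23-, and 1.56-fold and above Tsc2 siRNA by 1.22-, 1.41-, and 1.71-fold, but the groups overlapped and the level also differed between replicate numbers. The group means were 277 ± 66.6 (SD, n = 3), 370 ± 75.1 (SD, n = 3), and 256 ± 42.9 (SD, n = 3) CPM.

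The log2 fold change of Cd36 in Chd8 siRNA against control siRNA was 0.42 (standard error 0.21, edgeR adjusted p = 1.00). In the fit with the replicate block it was 0.43, with a 95% interval from 0.24 to 0.62 and an edgeR adjusted p = 0.0293 over all genes. Against Tsc2 siRNA it was 0.53 without and 0.52 with the block (95% interval 0.34 to 0.71, edgeR adjusted p = 0.0209). DESeq2 with the block gave 0.44 (adjusted p = 0.000198) and 0.53 (adjusted p = 6.22e-06). All blocked estimates were below the 1.5-fold threshold of 0.585 on the log2 scale. The blocked result did not hold when some single libraries were left out. In 9 such fits the log2 fold change against control siRNA stayed between 0.31 and 0.51, but the edgeR adjusted p was under 0.05 in 3. It was 0.0802, 0.0887, and 0.287 without control siRNA library 1, 2, or 3, 0.116 and 0.207 without Chd8 siRNA library 2 or 3, and 0.0655 without Tsc2 siRNA library 2. Against Tsc2 siRNA it was under 0.05 in 5 of 9 fits (0.110 and 0.247 without Chd8 siRNA library 2 or 3, 0.209 and 0.142 without Tsc2 siRNA library 2 or 3), and Cd36 was called when Chd8 siRNA library 1 (0.60) or Tsc2 siRNA library 1 (0.62) was left out. A permutation test (exact, two-sided) of log2 CPM gave p = 0.2 in both comparisons, where 0.1 is the smallest that 3 libraries against 3 allow. In Tsc2 siRNA against control siRNA the log2 fold change of Cd36 was −0.11, and −0.10 with the block (95% interval −0.28 to 0.09).

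Cd68 (chromosome 11, 69664213 to 69666153, minus strand) had higher means after Chd8 siRNA than after either other siRNA, as Cd36 did, with a smaller difference. Its levels were 306, 394, and 375 CPM after control siRNA, 371, 488, and 439 after Chd8 siRNA, and 335, 409, and 326 after Tsc2 siRNA. Chd8 siRNA was higher at all 3 replicate numbers than control siRNA, by 1.21-, 1.24-, and 1.17-fold, and than Tsc2 siRNA, by 1.11-, 1.19-, and 1.35-fold. A higher value at all 3 replicate numbers was found in 2 of the 7 receptors, Cd36 and Cd68, in both of these comparisons, and in 17.7% and 16.2% of all genes tested. Between Tsc2 siRNA and control siRNA, 0 of the 7 had differences of 1 sign at all 3 numbers, against 31.8% of genes. The log2 fold change against control siRNA was 0.27 (standard error 0.15; 0.17 without control siRNA library 1 and 0.18 without Chd8 siRNA library 2), also 0.27 with the block (95% interval 0.11 to 0.43, edgeR adjusted p = 0.107), which did not pass, and against Tsc2 siRNA it was 0.28 with the block (edgeR adjusted p = 0.142). DESeq2 with the block gave 0.28 in both comparisons, past the FDR (adjusted p = 0.014 and 0.0243) but below 1.5-fold, so the side of the threshold depended on the tool. Cd68 after Tsc2 siRNA differed from control siRNA by −0.01 with a blocked 95% interval from −0.17 to 0.15.

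The mean of Marco (chromosome 1, 120474538 to 120505024, minus strand) was lower in both knockdowns, but not at every replicate number. It had 8.40, 16.4, and 17.2 CPM after control siRNA, 12.01, 7.01, and 7.56 after Chd8 siRNA, and 9.21, 6.46, and 9.71 after Tsc2 siRNA. Control siRNA library 1 lay at the level of the knockdown libraries, and at replicate number 1 both knockdowns were above control siRNA, by 1.43- and 1.10-fold, whereas at numbers 2 and 3 they were at 0.427 and 0.439 of it (Chd8 siRNA) and at 0.394 and 0.564 of it (Tsc2 siRNA). The log2 fold changes were −0.66 (95% interval −1.37 to 0.06) and −0.72 (95% interval −1.44 to −0.01), both with an edgeR adjusted p = 1.00. With the block they were −0.65 and −0.73 (edgeR adjusted p = 0.333 and 0.337) and did not pass. Both comparisons share the control libraries, and without control siRNA library 1 the blocked values were −1.11 and −1.15 and passed both thresholds (edgeR adjusted p = 0.0301 and 0.0289). Without control siRNA library 2 they were −0.33 and −0.42. Summed astrocyte markers in control siRNA libraries 1 to 3 were 10.7, 23.1, and 99.7 CPM, and summed fibroblast markers 7.65, 20.4, and 52.6 CPM, in the same order as Marco. The order was not the same after Chd8 siRNA, where library 1 had the lowest sums (10.6 and 5.99 CPM) and the highest Marco level, or after Tsc2 siRNA, where library 1 had the lowest sums (9.72 and 4.26 CPM) and library 2 the lowest Marco level. Their part in the Marco difference was not tested.

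**Figure D2:**
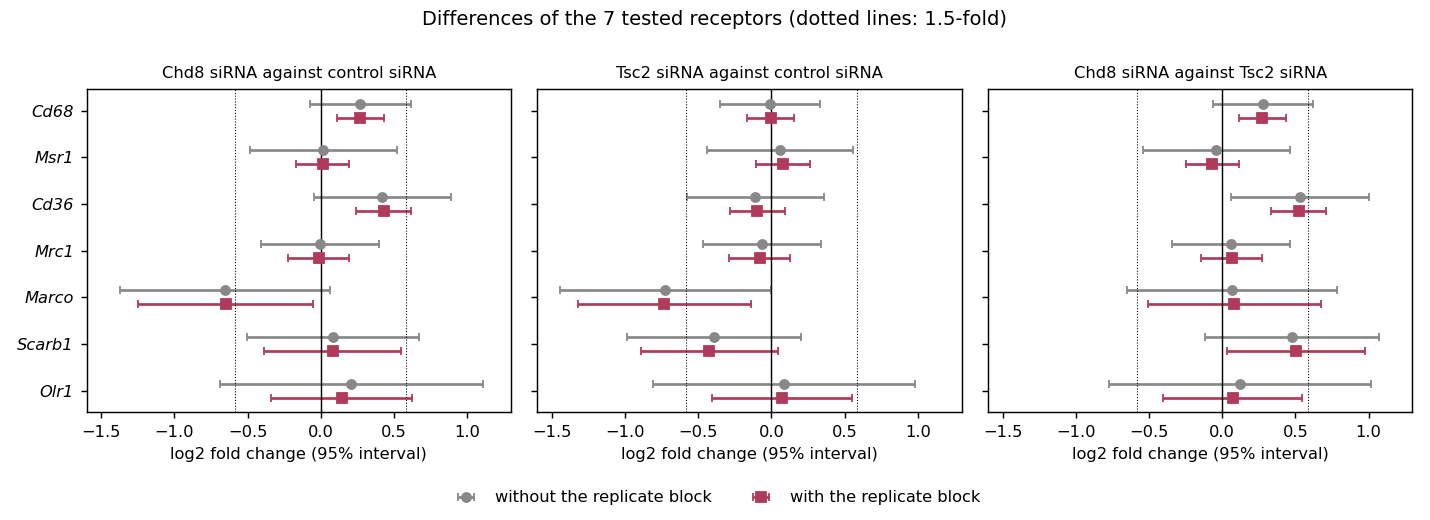
Log2 fold changes (horizontal axes) of the 7 tested receptors with 95% intervals in the 3 comparisons, from edgeR without (grey circles) and with (red squares) the replicate block. The blocked intervals of Cd36 in the 2 comparisons of Chd8 siRNA lie above 0, from 0.24 to 0.62 and from 0.34 to 0.71, and those of Msr1 and Mrc1 lie within the dotted lines at 1.5-fold.

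Msr1 (chromosome 8, 39581685 to 39642673, minus strand) and Mrc1 (chromosome 2, 14229392 to 14332057, plus strand) differed little between siRNAs. Msr1 had 834, 681, and 510 CPM after control siRNA, 903, 594, and 555 after Chd8 siRNA, and 803, 661, and 644 after Tsc2 siRNA. Its level was highest at number 1 in every group. Markers of several cell types also differed at number 1. Summed astrocyte and fibroblast markers were lowest there in every group, Itgam and the border-associated macrophage marker Siglec1 were highest, and Pf4, of the same list as Siglec1, was lowest. These 3 genes were chosen after their values were seen. Their part in the spread of Msr1 was not tested. The blocked 95% intervals of its fold were 0.889 to 1.144 after Chd8 siRNA and 0.932 to 1.20 after Tsc2 siRNA, each against control siRNA, and both leave out a 1.5-fold change. Mrc1 had 70.8, 69.0, and 83.9 CPM after control siRNA, 82.3, 60.0, and 80.5 after Chd8 siRNA, and 76.4, 55.6, and 81.6 after Tsc2 siRNA, lowest at number 2 throughout. The corresponding intervals of its fold were 0.857 to 1.144 and 0.818 to 1.09.

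The 2 remaining tested receptors, Scarb1 (chromosome 5, 125277087 to 125341094, minus strand) and Olr1 (chromosome 6, 129485244 to 129507165, minus strand), were low and their differences were less certain. Scarb1 had 10.9, 10.03, and 10.7 CPM after control siRNA, 11.04, 13, and 9.49 after Chd8 siRNA, and 11.5, 5.66, and 6.93 after Tsc2 siRNA. Tsc2 siRNA libraries 2 and 3 were below every other library, but library 1 was not, and the log2 fold change of −0.39 (95% interval −0.98 to 0.20) did not pass. It was −0.74 without Tsc2 siRNA library 1 and −0.19 without Tsc2 siRNA library 2. In Chd8 siRNA against Tsc2 siRNA the log2 fold change of Scarb1 was 0.48. With the block it was 0.50 (95% interval 0.03 to 0.97, edgeR adjusted p = 0.418) and did not pass. Olr1 had 5.27, 10.4, and 7.67 CPM after control siRNA, 4.79, 8.54, and 13.6 after Chd8 siRNA, and 5.63, 8.36, and 10.7 after Tsc2 siRNA. Its 95% interval in Chd8 siRNA against control siRNA ran from 0.620- to 2.16-fold, which includes a 1.5-fold change in either direction. With the block it ran from 0.791- to 1.54-fold, which leaves out a 1.5-fold decrease but not an increase. Scarb1 shares its strand and part of its region with the unconfirmed gene Gm42633, and the region of Mrc1 contains the microRNA gene Mir511. Only the regions of the genes were compared, so whether any reads fit both genes was not examined.

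Cd163 (chromosome 6, 124304656 to 124330527, plus strand) was not tested. It had 5, 2, and 3 counts after control siRNA, 3, 0, and 1 after Chd8 siRNA, and 0, 1, and 0 after Tsc2 siRNA. Except for the 5 counts in control siRNA library 1 these were at or under the floor of 3 counts, so no fold change was formed. Of its estimated counts, 81.4% were assigned to Cd163-203, a transcript with a retained intron that codes for no protein.

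The replicate number held more of the spread than the siRNA in 4 of the 7 tested receptors (Msr1, Mrc1, Olr1, and Cd68). Of the sum of squares of log2 CPM over the 9 libraries, the replicate number held 84.7% for Msr1, 79.3% for Mrc1, and 78.8% for Olr1, and the siRNA held 1.75%, 3.05%, and 1.41%. The siRNA held 47.1% for Cd36, 42.9% for Scarb1, 41.5% for Marco, and 40.7% for Cd68. The corresponding medians over all genes tested were 41.9% for the replicate number and 18.1% for the siRNA. For Cd36 and Cd68 the replicate number and the siRNA together left 7.54% and 9.57%, whereas 53.9% was left for Marco. The direction of the replicate numbers differed between receptors, with Msr1 highest and Cd36, Cd68, and Olr1 lowest, on average, at number 1.

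**Figure D3:**
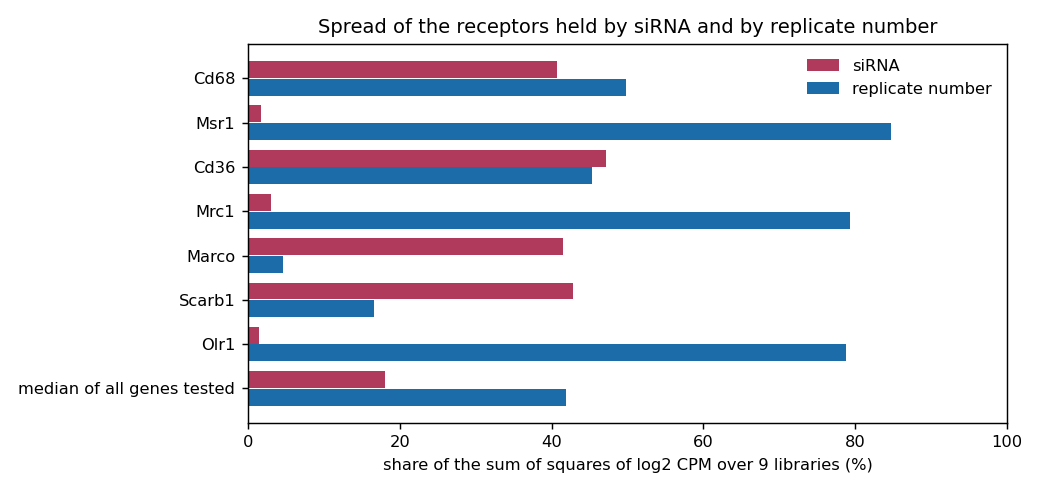
Share of the sum of squares of log2 CPM over 9 libraries, in percent (horizontal axis), held by the siRNA (red bars) and by the replicate number (blue bars) for each of the 7 tested receptors and as the median of all genes tested. Msr1, Mrc1, and Olr1 are at 78.8% or more for the replicate number and at 3.05% or less for the siRNA.

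The transcripts of the receptors were then compared. The table lists 37 transcripts of the 8 genes, of which 22 passed the filter, and 0 of these were called by edgeR in any comparison with or without the block (background 0.0% of 41633 transcripts; 0, 0, and 1 of the 22 had an unadjusted p under 0.05 without the block, against 3.32%, 2.83%, and 3.26% of all, and 3, 0, and 4 with it, against 5.41%, 4.48%, and 4.49%). A single transcript held nearly all counts of Marco, Cd68, Mrc1, and Olr1, at 98.8%, 98.5%, 99.6%, and 99.3% over the 9 libraries. Scarb1-201 held 70.3% of the Scarb1 counts, but between 36.0% and 89.2% in single libraries. Reads that fit several transcripts of a gene were divided among them by salmon, so the values per transcript are estimates.

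Msr1 was present in both forms whose parting is shown above. Msr1-202, the form with 354 codons, held between 63.0% and 72.2% of the Msr1 counts in each library, with means of 456, 469, and 489 CPM in control, Chd8, and Tsc2 siRNA. Msr1-202 is also the longer transcript, 3636 against 1424 bases, because its last exon on chromosome 8 (39603454 to 39605982) carries most of its length. Per length, Msr1-201, the form with 458 codons, made up 47.0% ± 5.35 (SD, n = 3) of both forms after control siRNA, 46.3% ± 1.37 (SD, n = 3) after Chd8 siRNA, and 44.0% ± 1.31 (SD, n = 3) after Tsc2 siRNA. The differences between these means were within the spread of the control libraries, which ran from 41.2% to 51.7%.

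Cd36 transcripts begin in 3 regions of chromosome 5 on the minus strand. The proximal starts lie at 17835696 to 17835717 (Cd36-201 and Cd36-206), the middle starts at 17849729 to 17849792 (Cd36-202 and Cd36-204), and the distal starts at 17888747 to 17888801 (Cd36-203 and Cd36-205), 53.0 kb upstream of the proximal starts. The printed promoter precedes the Cd36 start that RefSeq gives, which is close to the proximal starts. The proximal group had 122, 203, and 156 CPM after control siRNA, 169, 273, and 261 after Chd8 siRNA, and 138, 176, and 146 after Tsc2 siRNA. The distal group had 78.5, 134, and 92.4 CPM after control siRNA, 95.1, 140, and 123 after Chd8 siRNA, and 76.6, 117, and 76.9 after Tsc2 siRNA. Both groups were thus higher after Chd8 siRNA than after control siRNA at all 3 replicate numbers.

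The distal group held 35.6%, 37.7%, and 36.5% of the Cd36 counts after control siRNA and 33.6%, 32.2%, and 31.0% after Chd8 siRNA, and these groups did not overlap. This share was singled out after its values were seen and was not tested. Among all 33988 tested transcripts of genes with at least 2 tested transcripts, 9.18% had shares of their gene that did not overlap between the same groups. After Tsc2 siRNA the distal share was 33.3%, 37.9%, and 33.7%, which overlapped with both other groups. Among single transcripts, Cd36-201 was higher after Chd8 siRNA by 0.66 on the log2 scale with the block, and its edgeR adjusted p = 0.668 over all transcripts did not pass.

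**Figure D4:**
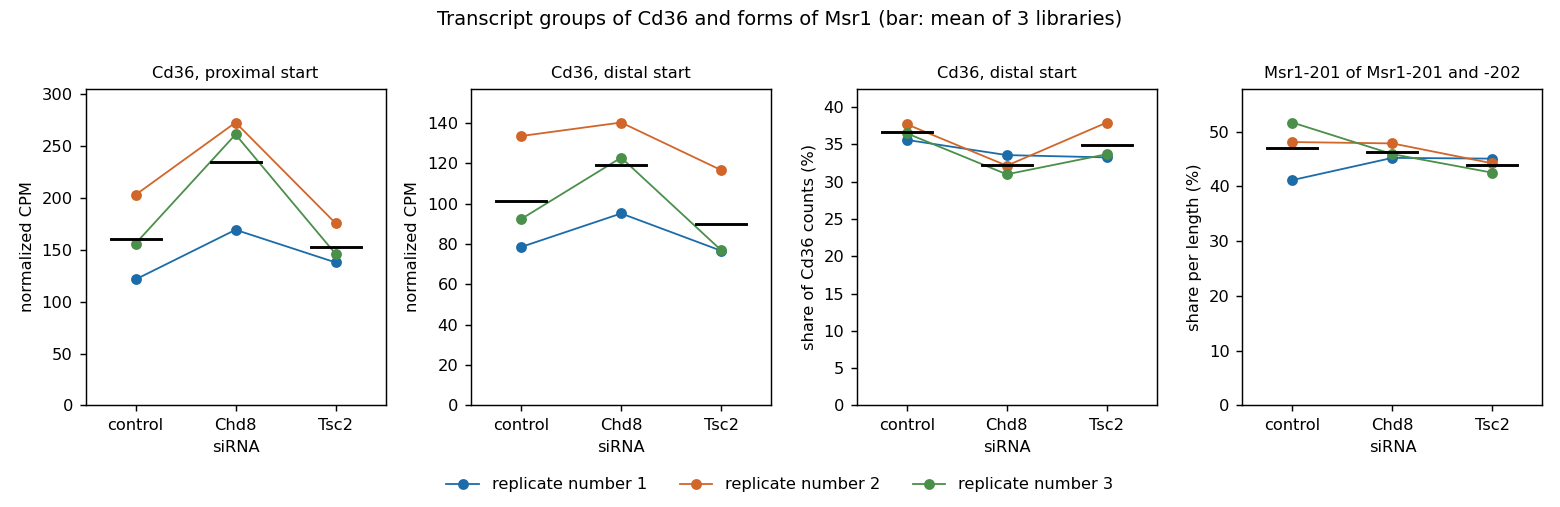
Normalized CPM of Cd36 transcripts with proximal and distal starts, the distal share of Cd36 counts in percent, and the share of Msr1-201 in both Msr1 forms per length in percent (vertical axes from 0), by siRNA (horizontal axes), with lines joining equal replicate numbers and bars for means of 3 libraries. The distal share of Cd36 after Chd8 siRNA, from 31.0% to 33.6%, lies below that after control siRNA, from 35.6% to 37.7%.

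Beyond the 8 genes, a list of 24 other scavenger receptors and related molecules was examined, of which 21 passed the filter. It was led by Cd14, the LPS co-receptor, Cd44, the hyaluronan receptor, and Lrp1, an endocytic receptor for many ligands, at means of 1226, 767, and 615 CPM over the 9 libraries. Without the block 0 of 21 were called by edgeR in any comparison. With the block 1 of 21, Cd5l, was called higher after Chd8 siRNA, where 0.246% of all genes were called higher, and 1, again Cd5l, after Tsc2 siRNA, where the background was 0.190%. None was called lower, where the backgrounds were 0.289% and 0.197%. An unadjusted p under 0.05 with the block was found for 4 of the 21 after Chd8 siRNA and 8 after Tsc2 siRNA, each against control siRNA. It was found for 5 in Chd8 siRNA against Tsc2 siRNA. Of all genes tested, 12.8%, 10.7%, and 10.7% had one in these comparisons. The median log2 fold changes of the list with the block were 0.06 and −0.02, those of the 7 tested receptors were 0.08 and −0.08, and those of all genes tested −0.02 and −0.01.

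Cd5l encodes a secreted macrophage protein of the scavenger receptor cysteine-rich family. It had 4.90, 3.88, and 2.61 CPM after control siRNA, 17.4, 18.5, and 12.9 after Chd8 siRNA, and 12.5, 7.51, and 14.9 after Tsc2 siRNA, so that all 6 knockdown libraries were above all 3 control libraries. Of all genes tested, 4.17% were higher without overlap after Chd8 siRNA and 3.88% after Tsc2 siRNA, each against control siRNA. Colec12, a collectin of the class A family related in structure to Msr1 and Marco, went the other way. It had 223, 201, and 197 CPM after control siRNA, 173, 186, and 180 after Chd8 siRNA, and 162, 137, and 137 after Tsc2 siRNA, and the 3 groups did not overlap. In the single comparisons, 9.09%, 8.11%, and 8.44% of all genes tested had groups that did not overlap. Colec12 was named after its values were seen. With the block its log2 fold change after Tsc2 siRNA was −0.51 (edgeR adjusted p = 0.00995, and 1.00 without the block; below 1.5-fold and therefore not called) and after Chd8 siRNA −0.20 (edgeR adjusted p = 0.299). In the blocked fit, 0.639% of all genes passed the FDR in Tsc2 siRNA against control siRNA. Both Cd5l and Colec12 compare with the same control libraries in the 2 knockdowns.

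**Figure D5:**
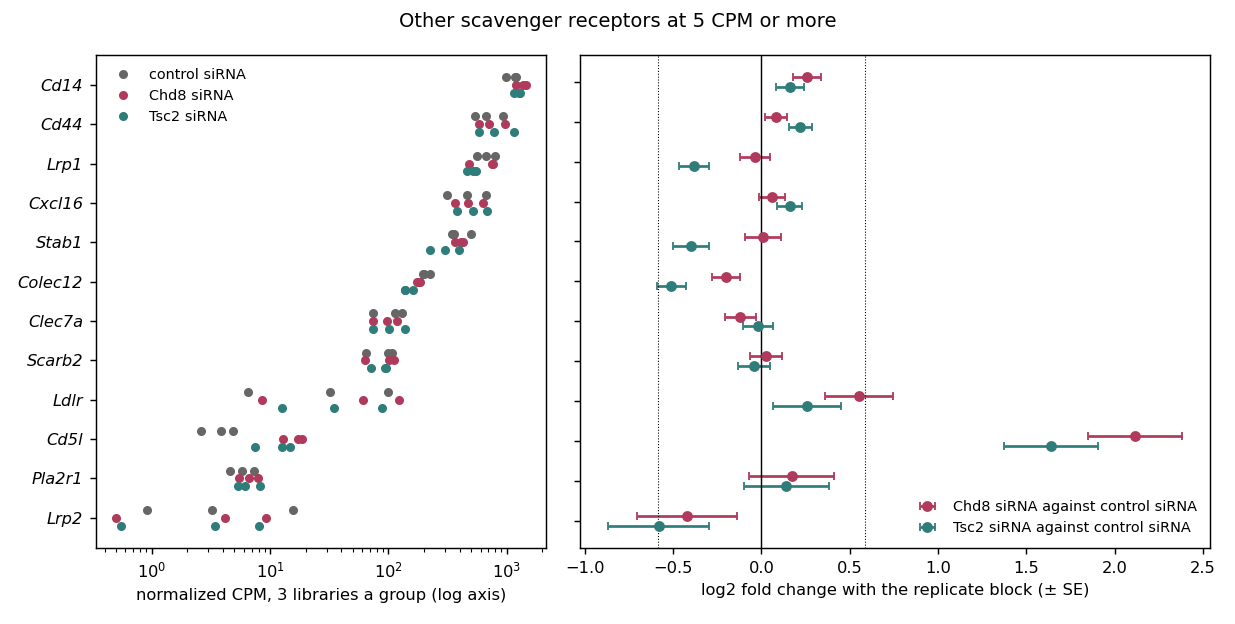
Other scavenger receptors with a mean of at least 5 CPM: normalized CPM of each library (left, log axis, 3 libraries a group) and log2 fold changes with the replicate block ± standard error (right; dotted lines, 1.5-fold). Cd5l lies at 2.11 and 1.64 in Chd8 and Tsc2 siRNA, and Colec12 at −0.20 and −0.51.

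Genes for the uptake and handling of lipid, the cargo of several of these receptors, had no call by the same test. Of 16 such genes, all of which passed the filter, 0 were called in any comparison with or without the block by edgeR. Apoe, the apolipoprotein secreted by glia, averaged 13900 CPM over the 9 libraries, and Lpl and Fabp5, a lipase and a fatty acid carrier, 1269 and 1055 CPM. The number with an unadjusted p under 0.05 in the blocked fit was 5 after Chd8 siRNA and 3 after Tsc2 siRNA, each against control siRNA. It was 6 in Chd8 siRNA against Tsc2 siRNA. Of all genes tested, 12.8%, 10.7%, and 10.7% had one in these comparisons. Among 15 regulators of receptor expression, led by Maf, Irf8, and Cebpb, 1 was called with the block, lower after Chd8 siRNA (background 0.289% of genes), and 0 without it. Cebpa, a transcription factor of myeloid cells, had 5.35, 6.46, and 7.97 CPM after control siRNA and 2.95, 2.74, and 2.96 after Chd8 siRNA, a blocked log2 fold change of −1.16 (edgeR adjusted p = 0.0405, and 1.00 without the block). In the marker lists, Col1a1, a fibroblast collagen, was called lower after Chd8 siRNA with the block (−1.31, edgeR adjusted p = 0.0218, and 1.00 without the block). The background was again 0.289%. It had 2.56, 12.8, and 43.9 CPM after control siRNA and 1.97, 4.46, and 13.2 after Chd8 siRNA. Ms4a7 and the microglia marker Aif1 were higher after Tsc2 siRNA than after control siRNA, by 0.43 and 0.53 with the block (edgeR adjusted p = 0.0158 and 0.0452). Both were below 1.5-fold and not called, and neither passed the FDR without the block. In that blocked comparison 0.639% of all genes passed the FDR.

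The genes whose log2 CPM followed each receptor most closely over the 9 libraries were sought among 6144 genes with a mean of at least 10 CPM. Libraries with the same replicate number share their number's level, so these correlations describe the 9 libraries only. For Msr1 the leading genes were P2rx4, Ist1, and Mmp14 (Pearson r 0.982, 0.977, and 0.967). For Cd36 they were Hmga1, Osbpl8, and Crlf2 (0.976, 0.974, and 0.973), and for Cd68 Kdm3b, Crlf2, and Irgm1 (0.974, 0.965, and 0.948). Crlf2, a cytokine receptor chain, was thus on both lists. Marco was followed by Prdx5, Gm4332, and Fech, Scarb1 by Bloc1s6, Erp29, and Snx27, Mrc1 by Gm42927, Gm37110, and Polr1c, and Olr1 by Postn and Pcna, with r between 0.846 and 0.943.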

How the data were processed

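The authors ran salmon 0.14.1 against the mm10 reference and tximport on the reads of 9 libraries and deposited estimated counts per transcript, without normalization or pooling. The annotation release is not given in the sources used here. Transcripts were summed to genes with GENCODE mouse release 21 (139852 of 140948 matched; the rest held 0.27% of counts) and rounded. Between 26.8% and 32.1% of values were not whole. Libraries were grouped by the siRNA in their titles.

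Differences were tested in R 4.3.3 with edgeR 4.0.16 (quasi-likelihood test, filterByExpr, TMM, all 9 libraries, siRNA as the only factor) and adjusted by Benjamini-Hochberg over 16273 genes or 41633 transcripts. A call needed an FDR under 0.05 and a change above 1.5-fold. DESeq2 1.42.0, limma 3.58.1, other filters, a replicate block, and each library left out were alternatives. TPM used annotated transcript lengths. The exact permutation test used log2 CPM with a pseudocount of 0.5. Floors of 3 counts cover counting error only. The edgeR test for genes was also run on simulated counts, with and without the block, for Chd8 siRNA against control siRNA. The outcome of that run is not given here.

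Deviations from the group means correlated between libraries with the same replicate number in all 9 pairs (r from 0.244 to 0.521). The replicate numbers, taken from the sample titles, were therefore read as pairing the libraries. Between libraries with other numbers r ran from −0.381 to 0.0363. Deviations cancel out within a group, which pushes these values down when the same-numbered ones are high, so they are no separate support. Beyond the number, nothing says that same-numbered libraries came from the same brain.

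The genes and lists were chosen with earlier results of these data known. From each list the called genes, the 3 with the highest mean CPM, and markers at or near 0 were named, and for each receptor the 3 genes with the highest r over the libraries. Other names were chosen after their values were seen. Some genes that these rules would name are not reported here.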

Additional observations from a re-analysis of the deposited data

How the results depend on the processing

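Counting error is largest for Cd163, which had at most 5 counts in a library, and for Olr1, Scarb1, and Marco, which had at most 402. With 3 libraries a group, edgeR's test without the block called 0 genes in each comparison. The count for Chd8 siRNA against control siRNA, Tsc2 siRNA against control siRNA, and Chd8 siRNA against Tsc2 siRNA was 87, 63, and 36 with the replicate block, 133, 115, and 103 with the block in DESeq2, 9, 6, and 5 with DESeq2's Wald test without it, and 2, 1, and 0 with no filter. With the block and no fold change threshold it was 169, 104, and 61, and the receptors called were 1, 0, and 1. Leaving out a library gave 0 genes in every fit without the block and between 20 and 108, between 7 and 131, and between 4 and 130 genes with it, and between 0 and 1 receptors. The block ended no receptor's call and made none (DESeq2 with the block put Cd68 past the FDR in both comparisons of Chd8 siRNA, below 1.5-fold), and when the blocked fit lacked a library, Marco was called in 2 comparisons and Cd36 in 2 fits of 1 comparison.

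Single log2 fold changes close to 0 changed sign under some settings. Scarb1 in Chd8 siRNA was −0.011 with protein-coding transcripts only. Mrc1 in Chd8 siRNA was 0.0048 with DESeq2 size factors, 0.0022 with no filter, and 0.0051 with DESeq2's test. In Tsc2 siRNA Cd36 was 0.040 with its leading transcript only and Cd68 0.013 with no filter, and Olr1 was −0.027 between the knockdowns with limma-voom. The fits without a library were pooled for the ranges that follow, with the block and without it. The log2 fold changes in Chd8 siRNA against control siRNA lay between −1.11 and −0.33 for Marco, −0.24 and 0.20 for Msr1, −0.12 and 0.13 for Mrc1, −0.22 and 0.51 for Olr1, −0.17 and 0.24 for Scarb1, 0.30 and 0.63 for Cd36, and 0.17 and 0.37 for Cd68. In Tsc2 siRNA against control siRNA they lay between −1.15 and −0.42 for Marco, −0.25 and 0.10 for Cd36, −0.12 and 0.083 for Cd68, −0.11 and 0.24 for Msr1, −0.18 and 0.086 for Mrc1, −0.19 and 0.35 for Olr1, and −0.74 and −0.19 for Scarb1. Between the knockdowns they lay between 0.40 and 0.68 for Cd36, −0.36 and 0.31 for Marco, −0.29 and 0.088 for Msr1, −0.091 and 0.19 for Mrc1, −0.32 and 0.43 for Olr1, 0.26 and 0.82 for Scarb1, and 0.18 and 0.39 for Cd68. The cause was not tested. None of the 22 tested transcripts was called with the block, the 1 CPM filter, DESeq2, or without a library.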
